A study of Homo sapiens with 12 samples.

Results

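The tricarboxylic acid cycle was followed through 9 of its enzyme genes, CS, IDH3A, IDH3B, IDH3G, OGDH, SUCLA2, SUCLG1, FH and MDH2, chosen by gene name among the 60558 genes that the tables of both knockdown experiments share. The cells were MDA-MB-231, an established human triple-negative breast cancer line. The first experiment compared NONO-knockdown cells with their own negative control (NC) cells, and the second compared PKM2-knockdown cells with a separate NC group. Each of the 4 groups held 3 bulk RNA-seq libraries. The labels give no other treatment or time. The methods use the name NC for the control of siRNA transfections, but which siRNA was given to the sequenced cells is not stated, so each knockdown stands for 1 cell line and an unnamed reagent. All 4 groups share the parental line.

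The cycle takes up acetyl-CoA from pyruvate, fatty acids and amino acids in the mitochondrial matrix and oxidises it to carbon dioxide. The electrons it releases feed the respiratory chain, and its intermediates are drawn off for lipid, nucleotide and amino acid synthesis. Pyruvate kinase M2, the product targeted in the second experiment, catalyses the last step of glycolysis upstream of pyruvate, whereas NONO is an RNA- and DNA-binding protein of nuclear paraspeckles.

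The targeted genes were measured first. NONO RNA fell after NONO knockdown (log2 fold change -2.57, adjusted P = 1.17e-10) and PKM RNA fell after PKM2 knockdown (-3.32, adjusted P = 7.03e-12), where P values came from the quasi-likelihood test of edgeR and were adjusted over all genes by Benjamini-Hochberg. The libraries held between 19861762 and 28455268 estimated counts. A single cycle gene had between 650 and 5376 of them in a library. For some genes, such as OGDH in NC cells of the PKM2 experiment, the replicates differed by no more than counting error. VIM, CD44, AXL and KRT18, which this mesenchymal-like line expresses, each had at least 3613 counts in every library, whereas CDH1 was at 0 in 11 of the 12 libraries, ESR1 and PGR never exceeded 11 counts, and EPCAM had 32 to 78 counts and fell after PKM2 knockdown (-0.70, adjusted P = 0.0162 from edgeR). In that experiment KRT18 (0.90, adjusted P = 5.01e-08 from edgeR) and VIM (0.14, adjusted P = 0.0330, same test) rose. AXL fell (-0.43, adjusted P = 2.51e-06, same edgeR test) and CD44 was not called. Of 6 markers of other cell types, CD68 and PECAM1 passed the filter on low counts, CD3E was at 0 in all 12 libraries, and PTPRC, CDH5 and ALB had at most 9 counts. The summed TPM of those 6 markers, mostly from CD68, lay between 123 and 129 in NC cells and 149 and 154 after NONO knockdown, and between 136 and 137 and 54.1 and 55.8 in the PKM2 experiment. Its part in the results was not tested. Farthest from their replicates stood PKM2-knockdown library 3 and, among NC libraries, library 1 of the NONO experiment. Nothing in the labels says that replicates were separate cultures, so P values measure the spread between these libraries only. In bulk RNA, fewer cells with a transcript and less of it per cell cannot be told apart.

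Promoter sequence was examined to see whether genes that moved in the same direction share motifs, since nuclear respiratory factor 1 (NRF1) and GA-binding protein, an ETS factor, are textbook activators of nuclear genes for mitochondrial proteins. Among the 9 genes, 8 matched a RefSeq promoter entry on GRCh38.p14, and the 250 bases before each annotated start were searched on both strands. OGDH had no entry. The NRF1 motif, GCGCA and GCGC with any base N between them, occurred in 3 of the 8 (IDH3A, IDH3G and SUCLA2), each time on the strand opposite to the gene, and in 5.07% of 35116 promoters. The ETS motif CCGGAAGT occurred in IDH3B and, at 2 places, in MDH2, and in 3.42% of all promoters. The GC box GGGCGG, bound by SP1 and KLF factors, was found 5 times before CS and also before IDH3A, SUCLA2 and FH, and in 42.6% of all promoters. AAGATGGC, CACGTG and TGACGTCA matched none of the 8, and no motif searched matched the window of SUCLG1. A match describes letters and not a bound site. The following 30-base stretches hold the NRF1 and ETS matches and the GC box nearest to the start of CS, with the motif in capitals and each read 5′ to 3′ on the strand of its gene, so that the NRF1 letters appear as their reverse complement. They lie at chr15:78149332-78149361 on the plus strand for IDH3A, chrX:153794418-153794447 on the minus strand for IDH3G, chr13:48001292-48001321 on the minus strand for SUCLA2, chr20:2664238-2664267 on the minus strand for IDH3B, chr7:76047982-76048011 and chr7:76048026-76048055 on the plus strand for MDH2, and chr12:56300371-56300400 on the minus strand for CS.
IDH3A: gggctccgagcgtggggtggGCGCTTGCGC
IDH3G: gtgcgaccgcGCGCGTGCGCagtaccgggt
SUCLA2: tgtcgcctgtGCGCCTGCGCgcggcgccga
IDH3B: ctcagtacaggCCGGAAGTcggggtacggg
MDH2 distal: ctttccgactcCCGGAAGTggccgtgatct
MDH2 proximal: ggcgagcgcgaCCGGAAGTccggtcactct
CS: gttccggccagtGGGCGGggcctccttgag

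The 3 genes that shared the NRF1 letters did not share a direction after PKM2 knockdown, where IDH3A rose, IDH3G fell and SUCLA2 was not called. The factor genes themselves were measured too. NRF1 RNA rose after NONO knockdown (log2 fold change 0.25, adjusted P = 0.0365 from edgeR) and was at 0.13 in the PKM2 experiment (adjusted P = 0.156, same test). GABPA, the DNA-binding subunit of GA-binding protein, rose in both experiments, by log2 fold changes of 0.45 and 0.62. GABPB1, a partner subunit, was called in neither (-0.17, adjusted P = 0.0539, and 0.08, adjusted P = 0.249, both from edgeR).

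Levels of different genes can be compared only per length, for which the deposited TPM values, transcript levels scaled by length and library size, were used. In NC cells of the NONO experiment, FH and MDH2, the enzymes of the last steps, were the most abundant, with 135 ± 7.10 and 134 ± 1.85 TPM (SD, n = 3), and their libraries overlapped. CS followed with 103 ± 6.62 TPM and IDH3B with 100.3 ± 3.19 TPM, again overlapping, and SUCLG1 had 87.0 ± 4.50 TPM. OGDH had 58.1 ± 2.15 TPM, IDH3G 51.7 ± 1.78 TPM and SUCLA2 50.8 ± 6.44 TPM, and SUCLA2 overlapped with both. IDH3A, the catalytic subunit of the NAD-dependent isocitrate dehydrogenase, was lowest with 28.7 ± 2.83 TPM, below every library of the other genes. FH exceeded 92.9% of the genes tested and IDH3A 66.6%.

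After NONO knockdown MDH2 stood above FH, and SUCLA2 stood above OGDH, with which it overlapped, and above IDH3G, while the other genes kept their places. After PKM2 knockdown it changed further. MDH2 stayed first with 137 ± 8.22 TPM and FH second with 109 ± 0.816 TPM. CS had 58.4 ± 5.67 TPM against 102 ± 5.01 TPM in its NC group, and went from the fourth to the sixth place, overlapping with SUCLG1. OGDH went from the eighth to the fourth place with 62.3 ± 5.56 TPM, also overlapping with SUCLG1. By CPM per deposited length, OGDH went from the sixth to the fourth place and CS from the fifth to the sixth, and IDH3A was lowest in all 4 groups. These places rest on the deposited lengths. That of OGDH, 3309 bases, was shorter than the length behind its TPM (4743 to 4968 bases over the libraries). For IDH3A the deposited 4083 bases were longer than that length (1281 to 3788 bases). By TPM in the NC group the places of IDH3A, SUCLA2, OGDH and IDH3G are not separated, since each overlapped with the next.

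**Figure D1:**
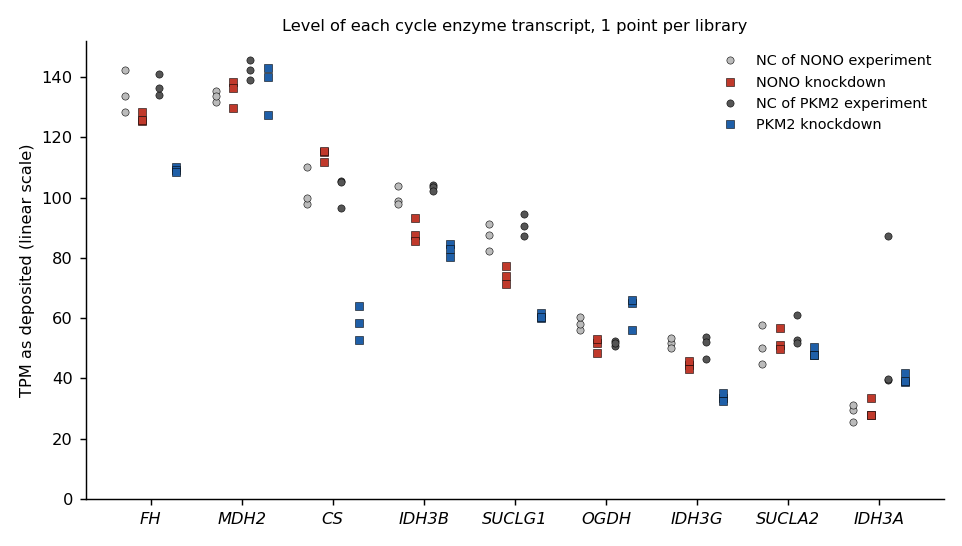
Deposited TPM of the 9 cycle genes on a linear axis, with 1 point per library, circles for NC and squares for knockdown groups. After PKM2 knockdown CS lies between 52.7 and 64.0 TPM against 96.6 to 105 TPM in NC libraries, and IDH3A of the first NC library of the PKM2 experiment stands alone at 87.3 TPM.

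The comparison of NONO-knockdown with NC cells asks which transcripts depend on NONO. For tests within a gene, counts were scaled to library size with TMM normalization (CPM), and a gene was called where the adjusted P of edgeR's quasi-likelihood test was below 0.05. NONO knockdown moved the cycle genes little. Of the 9 genes, 2 were called, CS upward and SUCLG1 downward, beside 33.4% of the 14832 genes tested (16.2% higher and 17.2% lower). The median log2 fold change was -0.07 over the 9 genes and -0.01 over all genes, and the median size of change was 0.13 against 0.19. No gene changed 2-fold, a size that 2.95% of all genes reached with an unadjusted P below 0.05.

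CS encodes citrate synthase, which joins acetyl-CoA to oxaloacetate at the entry of the cycle. CS had 176, 157 and 156 CPM in NC libraries 1 to 3 and 184, 183 and 188 CPM after NONO knockdown. The groups did not overlap, but the first NC library lay nearer to the knockdown libraries than to the other NC libraries. The log2 fold change was 0.18 (SE 0.05, adjusted P = 0.0184 from edgeR). The call was kept with only 1 of the 6 libraries left out, the first NC library (0.25, adjusted P = 1.14e-05), and without any of the other 5 the adjusted P lay between 0.0565 and 0.0814. On TPM scales in limma the change of CS was between 0.13 and 0.16 and was not called (adjusted P from 0.0813 to 0.160).

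SUCLG1, the subunit that both forms of succinyl-CoA ligase share, had 67.2, 63.2 and 59.8 CPM in NC libraries and 53.8, 56.5 and 58.7 CPM after NONO knockdown. The groups did not overlap, though narrowly. Its log2 fold change was -0.17 (SE 0.06, adjusted P = 0.0457 from edgeR). The call was lost with any library left out except the third NC library, with adjusted P values up to 0.171, and also with DESeq2 (adjusted P = 0.108) and with relative log expression factors (0.058). The sign of the SUCLG1 change was the same in each of these.

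IDH3G and OGDH also had NC and knockdown libraries that did not overlap, which made 4 of 9 genes (1 higher, 3 lower) beside 46.1% of all genes (22.6% higher and 23.5% lower). IDH3G, a regulatory subunit of isocitrate dehydrogenase, had 39.8, 41.1 and 38.3 CPM in NC libraries and 36.2, 34.9 and 36.5 CPM after knockdown, a change of -0.15 on the log2 scale (edgeR, adjusted P = 0.0764). On the TPM scales in limma IDH3G was called, with changes between -0.22 and -0.20 (adjusted P from 0.0110 to 0.0418). OGDH, the decarboxylating subunit of the 2-oxoglutarate dehydrogenase complex, had 156, 163 and 164 CPM in NC libraries and 149, 154 and 139 CPM after knockdown. Its log2 fold change was -0.13 (adjusted P = 0.0557), which was called without the first NC library (-0.14, adjusted P = 0.00762, same edgeR test). IDH3B, the other regulatory subunit, overlapped at its edge, with 83.7 to 88.9 CPM in NC libraries and 75.1 to 83.8 CPM after knockdown (-0.14, adjusted P = 0.0694), and was called without the second knockdown library (-0.18, adjusted P = 0.0471, both from edgeR).

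For the remaining 4 genes the libraries overlapped and the adjusted P values lay between 0.344 and 0.838. IDH3A lay between 54.6 and 63.9 CPM in NC libraries and between 55.4 and 60.1 CPM after knockdown. SUCLA2, which forms the ADP-specific succinyl-CoA ligase with SUCLG1, lay between 53.5 and 65.7 CPM and between 57.6 and 60.3 CPM, with its highest value in the first NC library; without that library its log2 fold change was 0.13 (adjusted P = 0.0482 from edgeR). FH, fumarate hydratase, lay between 146 and 164 CPM and between 144 and 149 CPM. MDH2, the matrix malate dehydrogenase that restores oxaloacetate, lay between 178 and 184 CPM in NC libraries and between 178 and 192 CPM after knockdown.

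**Figure D2:**
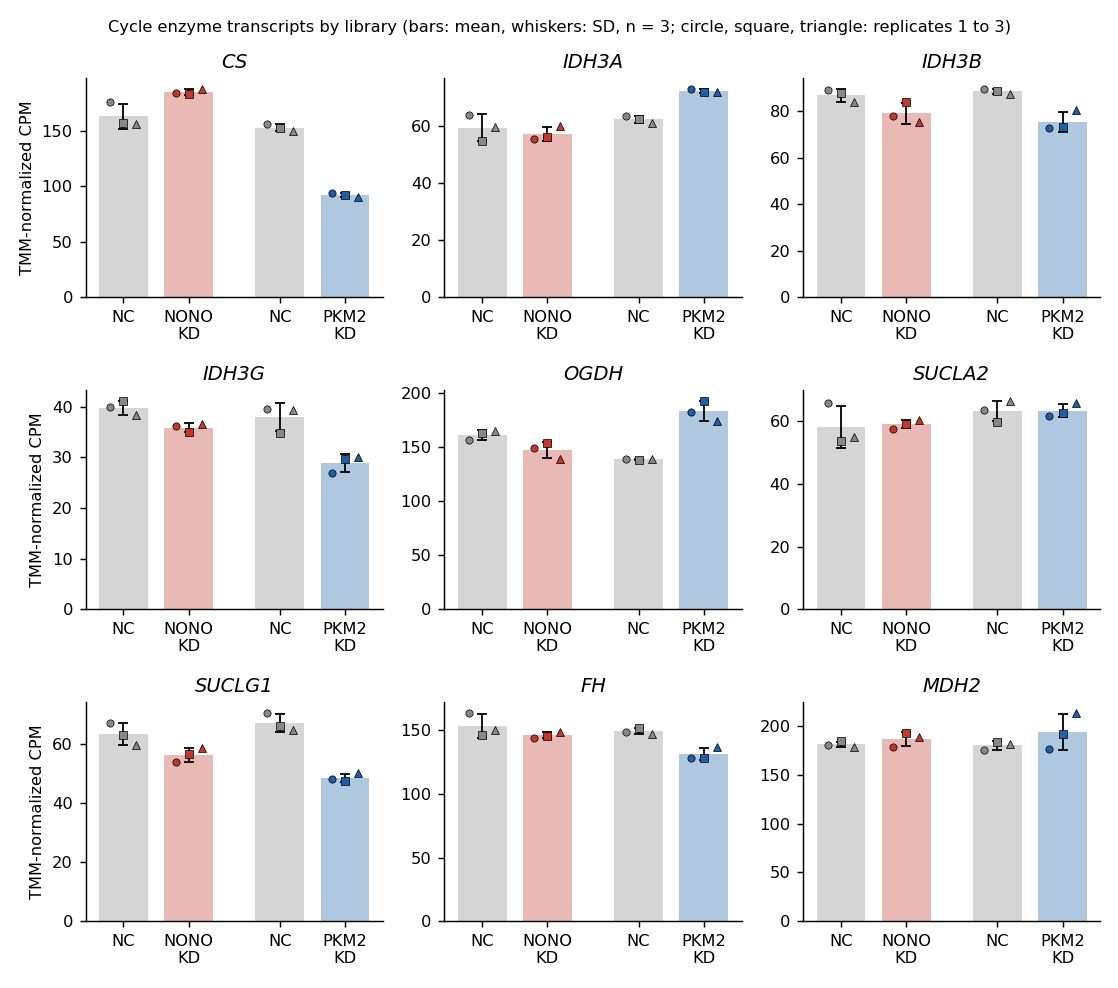
TMM-normalized CPM of each cycle gene by library, with bars for the mean, whiskers for the SD (n = 3) and a symbol for each replicate number. CS falls from 150 to 156 CPM in NC libraries to 90.4 to 93.5 CPM after PKM2 knockdown, while in the NONO experiment it goes from 156 to 176 CPM to 183 to 188 CPM.

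The PKM2-knockdown cells were compared with their own NC cells to find the transcripts that depend on PKM2. Here the cycle genes moved more, and in both directions. Of the 9 genes, 7 were called, which was 77.8% of them beside 68.4% of the 15524 genes tested. CS, SUCLG1, IDH3G, IDH3B and FH fell, beside 34.7% of all genes that were called lower, and OGDH and IDH3A rose, beside 33.6% called higher. The same 7 genes had libraries that did not overlap (5 lower and 2 higher), as did 71.9% of all genes (36.9% lower and 35.0% higher). The median log2 fold change was -0.19 over the 9 genes and -0.01 over all genes, and the median size of change was 0.23 against 0.47, so the median cycle gene changed less than the median gene, although CS changed more. No member changed 2-fold, whereas 20.8% of all genes did so with an unadjusted P below 0.05.

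CS changed most. It had 156, 153 and 150 CPM in the 3 NC libraries and 93.5, 92.6 and 90.4 CPM after PKM2 knockdown. The libraries of each group lay close together and the groups far apart. The log2 fold change was -0.73 (SE 0.05, adjusted P = 6.39e-08 from edgeR), to 0.603 of the NC level, and 20.1% of all genes fell as far or further. With any library left out it lay between -0.75 and -0.71.

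The subunits of NAD-dependent isocitrate dehydrogenase, which turns isocitrate into 2-oxoglutarate, moved apart. IDH3A, its catalytic subunit, had 63.4, 62.5 and 61.0 CPM in NC libraries and 72.9, 71.8 and 71.8 CPM after PKM2 knockdown, and every knockdown library was above every NC library (log2 fold change 0.21, SE 0.05, adjusted P = 0.00247 from edgeR). IDH3G had 39.6, 34.8 and 39.4 CPM in NC libraries and 26.9, 29.6 and 30.04 CPM after knockdown, a fall of the regulatory subunit (log2 fold change -0.40, SE 0.07, adjusted P = 4.47e-04). IDH3B had 89.3, 88.7 and 87.2 CPM in NC libraries and 72.6, 73.3 and 80.3 CPM after knockdown, with the third knockdown library the highest of its group. Its log2 fold change was -0.23 (SE 0.05, adjusted P = 0.00276, same edgeR test).

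Expressed as CPM per deposited length, the ratio of IDH3A to IDH3G was 0.524, 0.586 and 0.506 in NC libraries and 0.885, 0.792 and 0.782 after PKM2 knockdown, with no overlap. The ratio of IDH3A to IDH3B went from between 0.219 and 0.222 to between 0.2802 and 0.315. On deposited TPM both ratios overlapped between the groups, and that of IDH3A to IDH3G was 1.63, 0.851 and 0.763 in NC libraries and 1.16, 1.19 and 1.20 after knockdown. In a two-sided exact permutation test of 3 libraries against 3, the smallest P that can be reached is 0.1, so these ratios are given as values. In the NONO experiment the ratio of IDH3A to IDH3G was between 0.435 and 0.525 in NC libraries and between 0.5004 and 0.539 after knockdown, which overlapped.

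The rise of IDH3A was seen in counts and not in TPM. The deposited TPM of IDH3A were 87.3, 39.4 and 39.8 in NC libraries and 38.7, 41.8 and 39.0 after PKM2 knockdown, although the estimated counts of the NC libraries, 1858, 1573 and 1730, did not set the first library apart. Dividing counts by TPM gives the transcript length behind each TPM, up to a factor for each library. That factor was set so that the median gene above a minimum level had its deposited length. The length so obtained was 1281 bases for IDH3A in the first NC library and between 2716 and 3189 bases in the other 5 libraries of that experiment. For the other 8 genes this length varied by no more than 1.21-fold over the 12 libraries. On the scale of log2(TPM + 1) in limma the difference of IDH3A was -0.37 and not called (adjusted P = 0.297), and with TPM recomputed from counts and 1 fixed length per gene, an alternative added after seeing the data, it was 0.07 and not called (adjusted P = 0.272, also from limma). On that scale the median of all genes was -0.11.

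**Figure D3:**
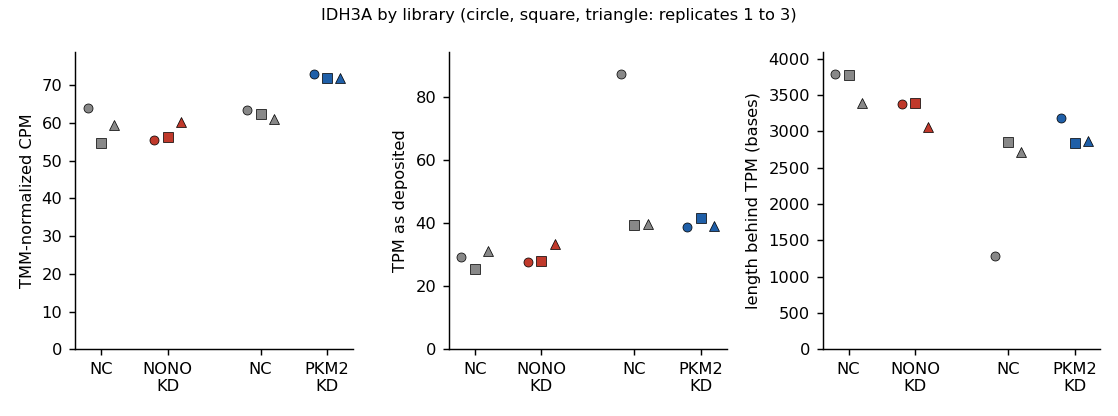
IDH3A by library as TMM-normalized CPM, as deposited TPM and as the length in bases that the ratio of counts to TPM implies, all on linear axes from 0. The first NC library of the PKM2 experiment stands apart in TPM (87.3) and in implied length (1281 bases) but not in CPM (63.4).

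OGDH commits 2-oxoglutarate to succinyl-CoA and was the cycle gene that rose most. It had 139, 138 and 139 CPM in NC libraries and 182, 193 and 174 CPM after PKM2 knockdown. Every knockdown library exceeded the NC libraries, which were close to each other. The log2 fold change was 0.40 (SE 0.05, adjusted P = 1.84e-05 from edgeR), 1.32-fold, and 26.0% of all genes rose as far or further. In the NONO experiment OGDH had changed by -0.13.

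Succinyl-CoA ligase consists of SUCLG1 and either SUCLA2, for the ADP-specific form, or SUCLG2, for the GDP-specific form. SUCLG1 had 70.6, 66.0 and 64.9 CPM in NC libraries and 48.0, 47.5 and 50.2 CPM after PKM2 knockdown, well apart. Its log2 fold change was -0.47 (SE 0.06, adjusted P = 1.59e-05 from edgeR). SUCLA2 had 63.6, 59.8 and 66.3 CPM in NC libraries and 61.8, 62.4 and 65.9 CPM after knockdown, with overlapping groups and a log2 fold change of 0.00 (SE 0.06, adjusted P = 0.964). SUCLG2 is not among the 9 genes and was listed with the other subunits; it rose after PKM2 knockdown from 58.6 ± 3.24 to 74.2 ± 1.38 CPM (log2 fold change 0.34, adjusted P = 1.99e-04) and fell after NONO knockdown from 69.9 ± 8.90 to 50.8 ± 2.14 CPM (-0.46, adjusted P = 0.00148, same edgeR test).

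The ratio of SUCLA2 to SUCLG1, as CPM per deposited length, was 0.520, 0.523 and 0.589 in NC libraries and 0.742, 0.759 and 0.757 after PKM2 knockdown. The ratio of SUCLG2 to SUCLG1 went from between 0.687 and 0.801 to between 1.22 and 1.32. On deposited TPM the ratio of SUCLG2 to SUCLG1 went from between 0.405 and 0.475 to between 0.709 and 0.783, so whether it exceeds 1 depends on the length used. On both scales both ratios were higher in every PKM2-knockdown library than in any NC library. After NONO knockdown the ratio of SUCLA2 to SUCLG1 was between 0.592 and 0.618 against 0.489 to 0.564 in NC libraries, which also did not overlap, while that of SUCLG2 to SUCLG1 did overlap.

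FH, which hydrates fumarate to malate, fell by a small amount. It had 149, 152 and 147 CPM in NC libraries and 128, 128 and 137 CPM after PKM2 knockdown. The groups were separate, with the third knockdown library nearest to the NC libraries, and the log2 fold change was -0.19 (SE 0.05, adjusted P = 0.00414 from edgeR). MDH2 had 175, 183 and 181 CPM in NC libraries and 176, 192 and 213 CPM after knockdown, with overlapping groups and a wide spread among knockdown libraries. Its log2 fold change of 0.11 (adjusted P = 0.154) was called without the first PKM2-knockdown library (0.18, adjusted P = 0.0186, same edgeR test).

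In the PKM2 experiment fold changes varied with base composition over all genes. The median log2 fold change was 0.17 in the lowest of 20 bins of GC content and -0.29 in the highest, and between -0.12 and 0.12 over bins of length. After the medians of 20 bins of GC content and of length were subtracted, an alternative added after seeing the data, IDH3G was at -0.22, FH at -0.31, SUCLG1 at -0.69 and OGDH at 0.50. CS was at -0.70, IDH3A at 0.21 and IDH3B at -0.27. All 7 genes called kept their direction.

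**Figure D4:**
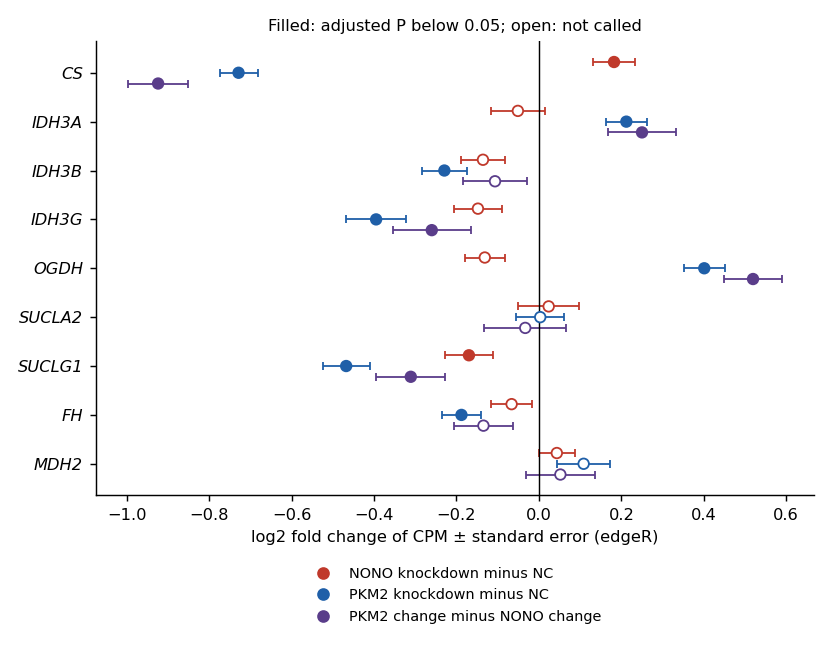
Log2 fold changes of CPM with standard errors from edgeR for the 9 cycle genes, for each knockdown against its own NC group and for the difference between them, with filled points for adjusted P below 0.05. CS (-0.73) and OGDH (0.40) mark the ends of the PKM2 changes, whereas the NONO changes lie between -0.17 and 0.18.

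Whether the 2 knockdowns differed in their effect was tested with the interaction term of a joint edgeR model of all 12 libraries. Each knockdown was made in its own experiment. The target, the reagent, the depth of knockdown and the experiment therefore cannot be told apart in this term. The term was called for 5 of the 9 genes (2 higher and 3 lower after PKM2 knockdown) beside 53.1% of the 15995 genes tested (25.7% higher and 27.4% lower). CS differed most, by -0.92 (SE 0.07, adjusted P = 1.24e-08), since it rose slightly after NONO knockdown and fell after PKM2 knockdown. OGDH differed by 0.52 (adjusted P = 7.29e-06), SUCLG1 by -0.31 (adjusted P = 0.00469), IDH3G by -0.26 (adjusted P = 0.0280) and IDH3A by 0.25 (adjusted P = 0.0181, all from that edgeR model). The call of IDH3G was kept with 6 of the 12 libraries left out in turn and lost without NC library 3 or knockdown library 1 or 3 of the NONO experiment, or without NC library 1 or 3 or knockdown library 1 of the PKM2 experiment (adjusted P from 0.0631 to 0.0969). It was also lost with DESeq2 (adjusted P = 0.0708) and without the filter on low counts (0.0518). The other 4 were called with each of the 12 left out. On deposited log2(TPM + 1) the difference of IDH3A was -0.42 and not called (adjusted P = 0.340 from limma). IDH3B (-0.11), FH (-0.13), SUCLA2 (-0.03) and MDH2 (0.05) were not called, with adjusted P values from 0.128 to 0.808, although FH was called without NC library 1 of the NONO experiment (-0.18) or without PKM2-knockdown library 3 (-0.17), and on the TPM scales in limma (between -0.24 and -0.20, adjusted P from 0.00726 to 0.00929).

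As a single value, the TPM of the 9 genes summed to 774, 730 and 739 in NC libraries and 701, 721 and 727 after NONO knockdown, a log2 ratio of -0.06. In the PKM2 experiment the sums were 822, 776 and 769.6 in NC libraries and 628, 643 and 625 after knockdown, a log2 ratio of -0.32. The groups did not overlap in either experiment, and the two-sided exact permutation P was 0.1 in both, the smallest that 3 libraries against 3 can give. On log2(TPM + 1) in limma the median change over all genes was -0.05 after NONO knockdown and -0.09 after PKM2 knockdown. The NC sum of 822 includes the 87.3 TPM of IDH3A in that library, and without the library the log2 ratio was -0.29. The size of the log2 ratio of -0.32 also depended on the scale. Summed CPM gave log2 ratios of -0.0201 (exact permutation P = 0.7) and -0.0805 (exact permutation P = 0.1), with sums of 945, 937 and 936 CPM in NC libraries and 863, 890.0 and 913 CPM after PKM2 knockdown.

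Over the 12 libraries, with each library centred on the mean of its own NC group, the cycle genes formed opposed patterns. These correlations describe points that share libraries and group differences. SUCLG1 was most like IDH3G (Pearson r = 0.93), FH most like SUCLG1 (0.93) and IDH3B most like SUCLG1 (0.88), and CS too was most like SUCLG1 (0.82). IDH3A and OGDH were most like each other (0.80), and OGDH ran opposite to CS (r = -0.98). SUCLA2 and MDH2 resembled no other member closely, with highest r of 0.36 for each. The mean profile of the 9 genes did not follow all of them. OGDH (r = -0.75), IDH3A (-0.54) and MDH2 (-0.30) ran against it, and SUCLA2 was at 0.38. The other members lay between 0.78 (CS) and 0.96 (FH). Among 14525 genes tested in both experiments, the 5 most like the mean profile of the 9 genes were ACTR1A (r = 0.98), an actin-related dynactin subunit, CYB561D2 (0.98), GAS6 (0.97), a ligand of AXL, NUDT19 (0.97) and DUSP7 (0.96), a phosphatase of MAP kinases.

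The other genes of the cycle and its surroundings were described from fixed lists. Of 10 further cycle subunits, 9 passed the filter and OGDHL did not. After NONO knockdown 3 rose and 2 fell, with a median log2 fold change of 0.04. SDHC, a membrane anchor of succinate dehydrogenase, rose by 0.31 (adjusted P = 2.38e-04 from edgeR), while SUCLG2 fell and IDH2, the NADP-dependent isocitrate dehydrogenase, fell by 0.52 on the log2 scale, both without overlap. After PKM2 knockdown 6 rose and 2 fell, with a median of 0.18. SDHB, the iron-sulfur subunit, rose from 70.0 ± 4.31 to 105 ± 10.3 CPM (0.59, adjusted P = 2.00e-05), whereas IDH2 fell from 20.3 ± 1.51 to 7.30 ± 1.58 CPM (-1.48, adjusted P = 1.20e-06) and DLST, the succinyltransferase of the OGDH complex, by 0.14. SDHA, the flavoprotein subunit, was called in neither experiment.

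The 4 assembly factors of succinate dehydrogenase had adjusted P values from 0.0524 to 0.836 after NONO knockdown (edgeR). After PKM2 knockdown SDHAF2 (0.89) and SDHAF3 (0.48) rose and SDHAF4 fell (-0.92), the last from a level of only 3.97 ± 0.122 CPM. The 4 counterparts outside the mitochondrial matrix included IDH1, the cytosolic NADP-dependent isocitrate dehydrogenase, which fell in both experiments (-0.37 and -0.88), as did ACLY, which splits exported citrate (-0.14 and -0.37). MDH1, cytosolic malate dehydrogenase, rose after PKM2 knockdown (0.16).

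All 14 genes of pyruvate entry were tested. After NONO knockdown 2 rose (PDP1, a phosphatase that activates pyruvate dehydrogenase, by 0.57, and PDHA1, its catalytic subunit, by 0.16) and 3 fell, among them MPC1, a subunit of the pyruvate carrier (-0.31), and PDP2 (-0.25). After PKM2 knockdown 3 rose and 8 fell, with a median of -0.28. The largest falls were those of PDK1 (-1.86) and PDK2 (-1.22), kinases that inactivate pyruvate dehydrogenase, and the largest rises those of PDP1 (0.81) and PDHX (0.77), a structural subunit. Other subunits of that complex fell, namely PDHB (-1.03), DLAT (-0.93) and PDHA1 (-0.36). Of 13 genes that fill or drain the cycle, 10 were tested. After PKM2 knockdown 7 of them fell, with GOT1, cytosolic aspartate aminotransferase (-1.11), and ME3, a mitochondrial malic enzyme (-0.87), ahead, and 2 rose, among them ME1, the cytosolic malic enzyme (0.51). After NONO knockdown ASNS, asparagine synthetase (-0.80), and GOT1 (-0.40) fell and ME1 rose (0.29).

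Of 8 mitochondrial carriers 6 were tested (not SLC25A18 or SLC25A21). SLC25A10, the dicarboxylate carrier, rose after NONO knockdown (0.21) and fell after PKM2 knockdown from 55.1 ± 4.03 to 17.2 ± 1.26 CPM (-1.68, adjusted P = 5.04e-09 from edgeR). SLC25A22, a glutamate carrier, rose after PKM2 knockdown (1.17) and SLC25A12 fell (-0.71). SLC25A13 rose in both experiments (0.29 and 0.49). SLC25A11, the oxoglutarate carrier, fell in both (-0.22 and -0.51). In total 2 of these carriers rose and 1 fell after NONO knockdown, and 2 rose and 3 fell after PKM2 knockdown. Among 4 genes of lipoylation and of the attachment of the 2-oxoglutarate complex, MRPS36 fell in both experiments (-0.42 and -0.30) and LIPT1 rose after PKM2 knockdown (0.42).

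Of 11 regulators of mitochondrial biogenesis, 3 rose and 4 fell after NONO knockdown, and 4 rose and 1 fell after PKM2 knockdown. PPARGC1A, the coactivator PGC-1alpha, fell after NONO knockdown (-0.72) and rose after PKM2 knockdown (1.10), from low levels of 9.79 ± 1.43 and 8.00 ± 0.404 CPM in the NC groups. TFAM, which packages mitochondrial DNA, fell after NONO knockdown (-0.47) and rose after PKM2 knockdown (0.38). PPARGC1B fell in both experiments (-0.31 and -0.53). Of the 13 mRNAs encoded by mitochondrial DNA, 3 rose and 1 fell after NONO knockdown (MT-CO1 by 0.19, MT-CYB by 0.15 and MT-ND5 at -0.12), and 2 rose (MT-ND2, 0.47, and MT-ND3, 0.35) and 8 fell after PKM2 knockdown, with MT-CO1 (-0.87) and MT-ATP8 (-0.60) lowest. Called among these 13 were 30.8% after NONO knockdown and 76.9% after PKM2 knockdown, beside 33.4% and 68.4% of all genes. Over the 8 nuclear lists together, 26 of 62 genes tested (41.9%) were called after NONO knockdown and 46 (74.2%) after PKM2 knockdown, beside the 33.4% and 68.4% of all genes given above.

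**Figure D5:**
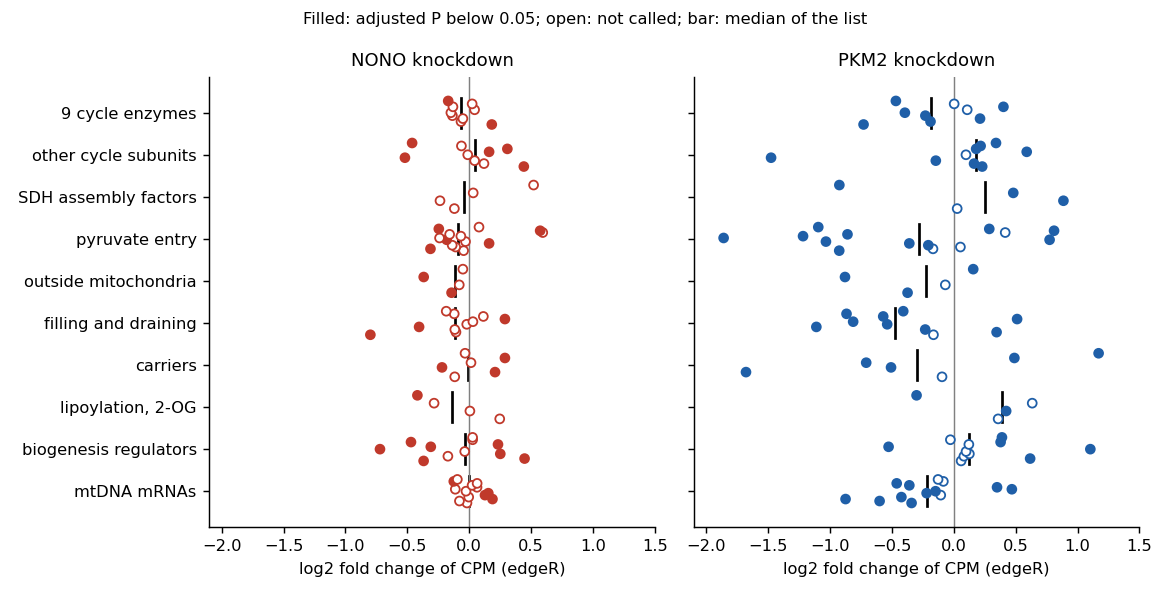
Log2 fold changes of CPM from edgeR for the 9 cycle genes and 9 lists of related genes, 1 point per gene, filled where the adjusted P is below 0.05, with a bar for the median of each list. After PKM2 knockdown the cycle genes span -0.73 to 0.40, inside the range of pyruvate entry, which reaches -1.86.

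Some counts are uncertain because exons overlap. On GRCh38 in GENCODE 29, CS (chromosome 12, 56271699 to 56300392, minus strand) shares 220 exon bases with AC073896.1 on the same strand, a gene with 173 to 408 counts per library, and its own estimated count was whole in 0 of 12 libraries. IDH3G (chromosome X, 153785766 to 153794523, minus strand) shares 278 exon bases with SSR4 on the opposite strand. SSR4 was at 0.16 on the log2 scale in the PKM2 experiment (edgeR, adjusted P = 0.0574). IDH3A (chromosome 15, 78131498 to 78171949, plus strand) shares 2608 exon bases with ACSBG1, which had fewer than 5 counts in any library. Whether reads were counted by strand is not stated. FH (chromosome 1, 241497603 to 241519761), IDH3B (chromosome 20, 2658395 to 2664219) and MDH2 (chromosome 7, 76048051 to 76067508) had whole counts in all 12 libraries, and OGDH (chromosome 7, 44606572 to 44709066) and SUCLG1 (chromosome 2, 84423523 to 84460045) shared exon bases with no other gene of that annotation. Even so, the estimated count was whole in only 9 of the 12 libraries for OGDH and in 4 for SUCLG1.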

How the data were processed

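Estimated counts and TPM values, which the authors made from the reads of each library, were deposited as 1 table for each experiment; the submitters' processing notes name fastp, HISAT2, StringTie, RSEM, DESeq2, edgeR and limma without versions or roles. They also name hg19, while 96.5% and 96.3% of the identifiers are in GENCODE 29 on GRCh38, which was used for positions only. The deposited gene length was used as a number of bases. Columns with the authors' fold changes, P values and group means were not used, and because library columns are named alike in both tables, they were assigned by table. Estimated counts were rounded, filtered with filterByExpr and TMM-normalized, and each knockdown was tested against its own NC group (edgeR 4.0.16 in R 4.3.3, quasi-likelihood test, Benjamini-Hochberg adjustment over all genes); standard errors came from the F statistic. Tried as alternatives were no filter, DESeq2 1.42.0, factors by relative log expression, a replicate block, limma 3.58.1 on log2 TPM with offsets of 1 and 0.1, other cutoffs, trends with length or GC content removed, and each library left out. Procedures were tested on simulated data. The genes, lists and tests were chosen with earlier results of these data known. Besides the 9 genes and both targets, the text names from each list at most the 2 largest called rises and falls per experiment, and the 5 genes most like the mean profile. Overlapping and marker genes were added. NRF1 and GABPB1 were also given beside the motifs, and PDHB, DLAT and PDHA1 as subunits of pyruvate dehydrogenase. SLC25A11 and PPARGC1B were given for both experiments, since both fell in each. A few items that this rule names are not reported here. With 3 libraries per group and 19861762 to 28455268 counts each, small changes rest on few samples.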

Additional observations from a re-analysis of the deposited data

Results flagged for a closer look

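For 5 cycle genes the response differed between the knockdowns in the interaction test of edgeR over 12 libraries, with Benjamini-Hochberg adjustment over 15995 genes, where 53.1% of genes did. CS differed by -0.92 on the log2 scale (PKM2 change minus NONO change). OGDH differed by 0.52 and IDH3A by 0.25, both higher after PKM2 knockdown. SUCLG1 differed by -0.31 and IDH3G by -0.26, both lower after PKM2 knockdown. The call of IDH3G was lost with DESeq2, without a filter and with 6 of the 12 libraries left out, and IDH3A was not called on TPM. In these differences the target, reagent, depth of knockdown and experiment cannot be told apart.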

How the results depend on the processing

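After PKM2 knockdown 7 cycle genes were called with edgeR, DESeq2, either normalization, no filter and a replicate block, 6 on each deposited log2 TPM scale, and 7 or 8 with each library left out; the fold cutoff of the methods left 0 of the cycle genes in both experiments, and 9 and 0 list genes after PKM2 and NONO knockdown. After NONO knockdown the 2 calls (CS and SUCLG1) became 1 with DESeq2 or relative log expression factors (CS), 1 with unfiltered TPM (IDH3G), 4 with fixed-length TPM (IDH3B, IDH3G, OGDH and SUCLG1), stayed 2 on filtered log2 TPM with other genes (IDH3G and SUCLG1), and became between 0 and 3 with each library left out, and the 26 calls in the lists became 14 and 13 on log2 TPM with offsets of 0.1 and 1, 8 without a filter, and between 18 and 32 with libraries left out (43 to 49 after PKM2 knockdown). Over all genes, edgeR called 4954 of 14832 after NONO knockdown, and between 3554 and 6249 with libraries left out. DESeq2 called 4232 of 27360, fixed-length TPM 4535 of 13637, log2(TPM + 1) 2645 of 13786, and unfiltered TPM 1699 of 27378. The median change of all genes was -0.05 on fixed-length TPM and on filtered log2(TPM + 1), against -0.01 with edgeR. After PKM2 knockdown edgeR called 10614 of 15524 genes and log2(TPM + 1) 8387 of 14026. The difference between knockdowns was called for 4 to 6 cycle genes with libraries left out. IDH3A turned to -0.37 after PKM2 knockdown and, for the difference, to -0.42 with either offset or without a filter on deposited TPM, none called, where its first NC library holds a shorter implied length. SUCLA2 was at -0.13 after PKM2 knockdown on fixed-length TPM (adjusted P = 0.0314 from limma), where the median of all genes was -0.11. The summed level moved from -0.06 to -0.0201 and from -0.32 to -0.0805 with CPM in place of TPM (between -0.08 and -0.04, and between -0.34 and -0.29, with libraries left out), and the highest member level over the lowest from 4.70 to 5.86 and from 2.81 to 5.46 in the NC groups with CPM per deposited length. Same-numbered libraries of a knockdown and its NC group did not deviate together (r between -0.07 and 0.04, with 1 of 6 libraries in each experiment closest to its own number), so the numbers were not taken as pairs; a replicate block gave 1, 7 and 4 calls for NONO, PKM2 and their difference, without SUCLG1 (adjusted P = 0.0910) and, for the difference, without IDH3G (adjusted P = 0.0526). Values called neither way also changed sign: MDH2 after PKM2 knockdown was between -0.06 and -0.03 on TPM scales against 0.11, and IDH3A after NONO knockdown was 0.05 on deposited TPM against -0.05.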
